A study of Homo sapiens with 15 samples.

Results

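The collagen genes were taken as every row of the count table whose Ensembl identifier belongs to a protein-coding gene with a symbol of the form COL, a number, A and a number, which names one chain of one collagen type. That rule found 44 of the 60670 genes, and no measured value entered it. The libraries were mRNA-seq of HT-1080, an established human fibrosarcoma line, with 15 libraries in 5 groups of 3. Cycling cells on vehicle (dimethyl sulfoxide) for 6 h formed the first group. Senescent cells, made by expressing a dominant negative TRF2 for 6 days, which uncaps telomeres, were given vehicle for 6 h, 1 uM of the tyrosine kinase inhibitor GNF-7 for 6 h, vehicle for 24 h or GNF-7 for 24 h. In what follows, "vehicle 6 h" and "vehicle 24 h" without further words are the senescent vehicle groups. All groups were grown in tetracycline-free serum at low oxygen. GNF-7 was given to senescent cells only, so the libraries hold no test of the compound in cycling cells. The labels do not say whether the cycling cells carried the TRF2 construct, and all libraries came from 1 cell line. They call the 3 libraries of a group biological replicates without saying that these were separate cultures, so p-values measure the spread between these libraries.

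Collagens are the main fibrous proteins of the extracellular matrix, built from chains that wind around each other into a triple helix. Fibrillar collagens form the ropes of connective tissue, type IV chains form the sheet-like network of basement membranes, type VI forms beaded filaments close to the cell surface, and other classes coat fibrils, anchor epithelia or sit in the cell membrane. Chains are hydroxylated, folded and exported by dedicated enzymes and chaperones before they are trimmed and cross-linked outside the cell. Fibroblast-like tumour cells make collagen of many classes, and altered matrix is a known feature of senescent cells.

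Several collagen genes lie side by side, and COL4A1 and COL4A2, the paired chains of the main basement membrane heterotrimer, are read in opposite directions from one shared stretch. The 4 stretches shown belong to genes that stand for the directions described below, where the GNF-7 direction is that at 24 h. COL4A1 and COL4A2 were lower in senescent cells and with GNF-7. COL4A5 was higher in senescent cells and lower with GNF-7, and COL6A2 and COL7A1 were higher in both. At 6 h of GNF-7, COL4A5, COL6A2 and COL7A1 were not called. The stretches come from the RefSeq tables of GRCh38.p14. Capitals mark the letters CCAAT on either strand. They also mark GGGCGG on either strand, so that its reverse complement is in capitals too. The TATAAA motif is marked in the same way. Start sites here are those of RefSeq. The GENCODE gene models, whose positions are given with each gene, put the COL4A1 start inside the shared stretch (110307233). They put the COL4A2 start before it (110305812). The shared stretch between the RefSeq start sites of COL4A1 and COL4A2 is chr13:110307158-110307283 on the plus strand, 126 bases long. The others are the 100 bases before the start site of COL4A5 (chrX:108439738-108439837, plus strand), COL6A2 (chr21:46098012-46098111, plus strand) and COL7A1 (chr3:48595330-48595429, minus strand).
COL4A1-COL4A2: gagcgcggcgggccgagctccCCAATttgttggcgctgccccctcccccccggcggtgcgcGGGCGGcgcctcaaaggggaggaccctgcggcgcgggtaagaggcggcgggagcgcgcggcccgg
COL4A5: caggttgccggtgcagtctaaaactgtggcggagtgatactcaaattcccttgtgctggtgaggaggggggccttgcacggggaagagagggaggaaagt
COL6A2: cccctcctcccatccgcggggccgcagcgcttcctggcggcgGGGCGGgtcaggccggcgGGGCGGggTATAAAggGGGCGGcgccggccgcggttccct
COL7A1: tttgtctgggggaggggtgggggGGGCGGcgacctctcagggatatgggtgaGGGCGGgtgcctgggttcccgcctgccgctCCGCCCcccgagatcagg

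The COL4A1-COL4A2 stretch held 1 CCAAT and 1 GGGCGG, the COL6A2 stretch 3 GGGCGG and 1 TATAAA, the COL7A1 stretch 3 GGGCGG, and the COL4A5 stretch none of these letters. In the longer window of 250 bases used next, COL4A5 held 2 CCAAT and COL7A1 also held 1 TATAAA. Promoter entries were found for 32 of the 44 collagen genes, as 44 entries with alternative starts. In the 250 bases before the start, 24 of the 44 entries held GGGCGG on either strand, against 42.6% of 35116 promoters, 12 held CCAAT, against 32% of promoters, and 8 held TATAAA, against 10.7% of promoters. TGANTCA stood in 1 entry, that of COL10A1, against 6.57% of promoters, and TGATGNAA in 1, that of COL21A1, against 3.14% of promoters. These are matches of letters and not measured sites.

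The libraries held 25991007 to 32323393 counts. Levels are given as CPM, counts scaled to library size. TERF2, the gene for TRF2, averaged 58.2 ± 3.65 CPM over the cycling libraries (SD, n = 3), and in senescent cells 287 ± 8.17 at vehicle 6 h, 222 ± 8.60 with GNF-7 for 6 h, 220.0 ± 7.26 at vehicle 24 h and 132 ± 5.38 with GNF-7 for 24 h. It thus moved with the groups compared, and its part in the collagen results was not tested. These counts do not separate the construct from the cell's own gene. Mitochondrial genes took 4.32% of the counts in cycling cells, 11.7% at vehicle 6 h, 14.1% with GNF-7 for 6 h, 16.9% at vehicle 24 h and 23.3% with GNF-7 for 24 h, so this share moved with the groups that the collagen results compare, and its part in them was not tested. With mitochondrial genes left out before scaling, no called collagen value changed sign. Of 8 mesenchymal markers 7 passed the filter and THY1 was listed at 0 in all 15 libraries. Their sum was 4407 to 4679.5 CPM with GNF-7 for 24 h, below every library of the other groups, which had 5812 to 5979 CPM in cycling cells, 5577 to 5949 at vehicle 6 h, 5322 to 5818 with GNF-7 for 6 h and 5683 to 6223 at vehicle 24 h. Of 4 muscle and cartilage markers only SOX9, a cartilage regulator, passed. That list summed to 152 to 158 CPM in cycling cells, 108 to 118 at vehicle 6 h, 82.4 to 87.9 with GNF-7 for 6 h, 119 to 129 at vehicle 24 h and 97.6 to 105 with GNF-7 for 24 h, so with GNF-7 it was below vehicle at both times without overlap. The part of these marker differences in the collagen results was not tested. None of 5 epithelial markers passed the filter (sums of at most 0.776 CPM), nor did more than 1 of 4 leukocyte markers (at most 0.624 CPM) or 2 of 4 endothelial markers (0.503 to 2.37 CPM, highest with GNF-7 for 24 h).

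The collagen signal of these cells was carried by a few genes. Per kilobase of exon, which makes genes comparable, COL6A3 led in cycling cells at 71.6 ± 1.28 CPM per kb (SD, n = 3), ahead of COL13A1 at 64.0 ± 1.98 and COL6A1 at 55.4 ± 1.20. COL4A2, COL4A1 and COL6A2 followed at 37.8 ± 0.980, 29.5 ± 1.10 and 27.6 ± 0.768 CPM per kb. COL27A1 was next at 9.63 ± 0.348 CPM per kb. The 3 type VI chains had the 3 highest means with GNF-7 for 6 h, at vehicle 24 h and with GNF-7 for 24 h. The lowest of them, COL6A2, was ahead of COL13A1 by less than the spread with GNF-7 for 6 h and at vehicle 24 h (39.5 ± 1.01 against 38.7 ± 0.751 CPM per kb), and stood at 61.3 ± 3.56 against 26.4 ± 0.622 with GNF-7 for 24 h. With GNF-7 for 24 h COL6A3 was at 99.5 ± 1.57 and COL6A1 at 84.3 ± 1.71 CPM per kb. At vehicle 24 h COL6A1 (77.4 ± 3.50) and COL6A3 (76.8 ± 3.16) lay within each other's spread. All 44 genes together took 0.362% of the counts in cycling cells, 0.431% at vehicle 6 h, 0.429% with GNF-7 for 6 h, 0.378% at vehicle 24 h and 0.413% with GNF-7 for 24 h. As summed CPM they stood at 3800 ± 59.0, 4126 ± 150, 4076 ± 54.5, 3914 ± 99.1 and 4186 ± 24.4 in the same order (SD, n = 3). Which group had the highest mean thus depended on the scaling. In bulk RNA, fewer cells making a transcript and less of it per cell cannot be told apart.

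The make-up of that signal differed between groups. Type VI chains (COL6A1, COL6A2 and COL6A3) made up 48.0% ± 0.481 of the summed CPM per kb of all 44 genes in cycling cells (SD, n = 3), 55.7% ± 0.158 at vehicle 6 h, 56.8% ± 0.490 with GNF-7 for 6 h, 55.6% ± 0.887 at vehicle 24 h and 65.6% ± 0.354 with GNF-7 for 24 h. COL4A1 with COL4A2 went the other way, with 20.9% ± 0.394, 15.1% ± 0.502, 14.3% ± 0.553, 12.3% ± 0.250 and 7.98% ± 0.503 in the same order. COL13A1 took 19.9% ± 0.526 in cycling cells, 10.1% ± 0.113 at vehicle 6 h, 11.1% ± 0.266 at vehicle 24 h and 7.05% ± 0.123 with GNF-7 for 24 h. For type VI, for COL4A1 with COL4A2 and for COL13A1, the 3 libraries with GNF-7 for 24 h did not overlap those at vehicle 24 h, nor did cycling libraries overlap those at vehicle 6 h. COL4A5 with COL4A6 took 1.08% ± 0.0439 in cycling cells, 3.37% ± 0.0732 at vehicle 6 h, 3.75% ± 0.0545 at vehicle 24 h and 2.60% ± 0.112 with GNF-7 for 24 h.

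**Figure D1:**
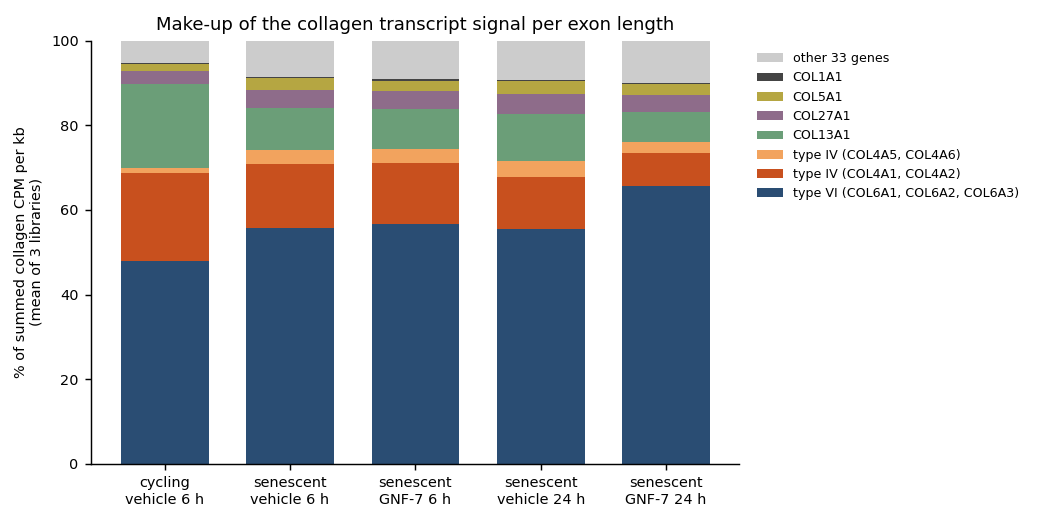
Share of the summed collagen CPM per kb of exon (y axis, %) taken by each collagen in the 5 groups (x axis), as stacked means of 3 libraries that add up to 100%. Type VI is the lowest block in every bar and is tallest with GNF-7 for 24 h, at 65.6%, while COL4A1 with COL4A2 is shortest there, at 7.98%.

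Type I collagen, the classic product of fibroblasts, was nearly absent as a pair. COL1A1 was measured at a group mean of 7.18 to 13.0 CPM, whereas COL1A2, its partner chain, had 0 to 9 counts in a library and COL3A1, the type III chain, 0 to 8. In all, 18 of the 44 genes were too low to test: COL1A2, COL2A1, COL3A1, COL4A3, COL4A4, COL5A3, COL6A6, COL9A1, COL9A2, COL9A3, COL10A1, COL14A1, COL19A1, COL23A1, COL24A1, COL25A1, COL26A1 and COL28A1. The highest count of any of them in any library was 18, in COL10A1, and COL9A1 had none in all 15 libraries. The other 26 passed the filter, which asks for about 0.335 CPM in at least 3 libraries. COL11A1 was under that level in every library of cycling cells, vehicle 6 h and GNF-7 for 24 h, and COL20A1 in every cycling library, so these genes were tested only because another group was higher.

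The contrasts were fitted over all genes, and calls were made at adjusted p-values under 0.05 (edgeR's quasi-likelihood test, Benjamini-Hochberg). Against cycling cells, senescent cells on vehicle for 6 h had 18 of 26 collagen genes higher, 3 lower and 5 not called, where 70.0% of all 18563 tested genes were called, 35.6% as higher and 34.4% as lower. The median collagen log2 fold change was 0.78 and that of all genes 0.062. At least 2-fold differences were 10 higher and 0 lower, against 18.5% and 7.56% of all genes. The 10 include COL20A1, which was tested only because groups other than the cycling one were higher. After 6 h of GNF-7, 3 collagen genes were higher and 5 lower, against 39.3% of all genes called (17.9% higher and 21.4% lower), and the medians were 0.026 and 0.0073. With sizes from the total counts, with relative log size factors or with mitochondrial genes left out, this split was 4 to 4. The 6 h collagen median turned to -0.035 without replicate 2 of GNF-7 6 h. It was -0.018 without replicate 3 of vehicle 6 h and -0.018 with only the groups compared. After 24 h, 10 collagen genes were higher and 11 lower, against 58.9% of all genes called (29.3% higher and 29.7% lower), with medians of -0.12 and 0.038. The 24 h collagen median turned to 0.10 with no filter. At least 2-fold differences with GNF-7 were 1 higher and 0 lower at 6 h, against 4.16% and 0.566% of all genes. At 24 h they were 4 higher and 1 lower, against 10.3% and 3.92%.

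The 24 h and 6 h effects of GNF-7 were compared by their difference, called the interaction. It was called in 16 of 26 collagen genes, 6 of them with the more positive and 10 with the more negative effect at 24 h, against 30.8% of all genes called (12.8% and 18.0%). It was at least 2-fold in 2 upwards and 1 downwards, against 2.93% and 2.06% of all genes. The 1 downwards was COL11A1, under the filter level in every vehicle 6 h and every 24 h GNF-7 library. Vehicle 24 h against vehicle 6 h in senescent cells gave 7 collagen genes higher and 3 lower, against 18.5% of all genes called (9.26% higher and 9.29% lower). At least 2-fold differences were 1 higher and 0 lower there, against 0.302% and 0.232%. The 1 higher was again COL11A1, which was tested only through the groups where it was high, so both of its values are descriptions. The libraries did not overlap for 22 of 26 collagen genes between cycling and senescent cells, against 71.5% of all genes, for 10 with GNF-7 at 6 h, against 47.7%, for 21 at 24 h, against 63.2%, and for 13 between the vehicle times, against 32.9%. The senescence contrast and the 6 h contrast share the vehicle 6 h libraries, so their values are given side by side and not correlated.

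**Figure D2:**
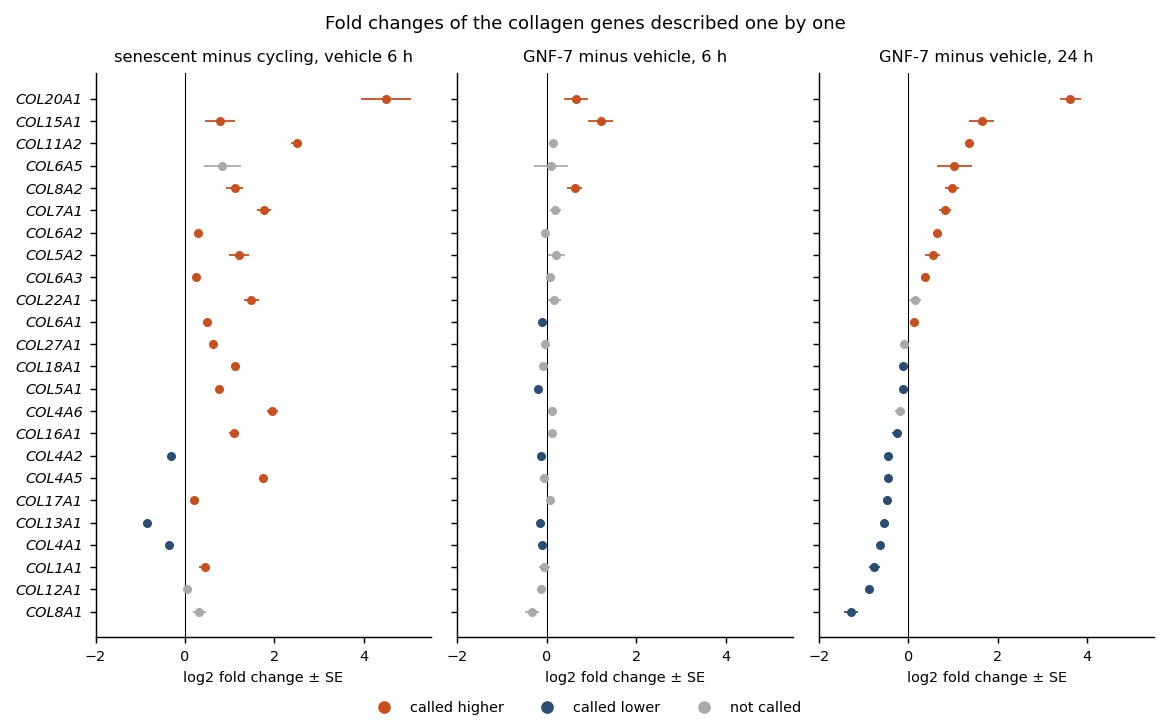
Log2 fold change ± SE (x axis) of the 24 collagen genes described one by one (y axis, ordered by the 24 h GNF-7 value) for senescent against cycling cells, GNF-7 at 6 h and GNF-7 at 24 h, with called genes coloured. Senescence values lie mostly right of 0, 6 h values run from -0.33 for COL8A1 to 1.20 for COL15A1, and 24 h values run from -1.29 for COL8A1 to 3.62 for COL20A1; the COL20A1 senescence point rests on 3 counts in cycling cells.

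Among the 11 fibrillar chains 6 were tested, and 5 of them were higher in senescent than in cycling cells, against 35.6% of all genes. The strongest of these was COL11A2 (chromosome 6, 33162681 to 33192499, minus strand), a chain of type XI collagen, which sits inside fibrils and limits their width. It stood at 2.65, 2.55 and 3.98 CPM in the 3 cycling libraries. On vehicle, senescent COL11A2 was at 16.1, 18.4 and 17.9 CPM for 6 h and 17.0, 19.3 and 19.2 CPM for 24 h. With GNF-7 COL11A2 stood at 16.8, 22.2 and 18.9 CPM after 6 h and at 43.5, 50.5 and 47.1 CPM after 24 h. All cycling libraries were the lowest and all 24 h GNF-7 libraries the highest, with no overlap with their controls. COL11A2 was 5.65-fold higher in senescent cells, a log2 fold change of 2.50 ± 0.12 (SE, adjusted p = 7.47e-22), and rose again with GNF-7 at 24 h (log2 fold change 1.35 ± 0.088 SE, adjusted p = 2.59e-17). The 6 h value was a log2 fold change of 0.14 ± 0.093 (SE, adjusted p = 0.257). For COL11A2 the interaction was a log2 difference of 1.21 ± 0.13 (SE, adjusted p = 2.74e-10).

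COL1A1 (chromosome 17, 50183289 to 50201632, minus strand), the main chain of type I collagen, stood at 7.60, 7.09 and 6.86 CPM in cycling cells. On vehicle, senescent COL1A1 was at 9.47, 10.5 and 9.16 CPM for 6 h and 11.7, 13.7 and 13.7 CPM for 24 h. With GNF-7 COL1A1 was 7.10, 10.7 and 10.3 CPM after 6 h and 6.55, 8.22 and 8.20 CPM after 24 h. The vehicle 24 h libraries were the highest of all 15, while the 6 h GNF-7 libraries spread over both sides of their vehicle. COL1A1 was higher in senescent cells (log2 fold change 0.44 ± 0.12 SE, adjusted p = 0.00150) and at vehicle 24 h than 6 h (log2 fold change 0.42 ± 0.12 SE, adjusted p = 0.00643). It was lower with GNF-7 at 24 h (log2 fold change -0.77 ± 0.12 SE, adjusted p = 1.39e-07) and its 6 h value was a log2 fold change of -0.051 ± 0.12 (SE, adjusted p = 0.778). The interaction was -0.71 ± 0.17 on the log2 scale (SE, adjusted p = 6.28e-04).

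COL5A1 (chromosome 9, 134641774 to 134844843, plus strand), the type V chain that starts fibril assembly, averaged 63.4 ± 2.57 CPM in cycling cells (SD, n = 3) and 108 ± 2.31 at vehicle 6 h, a log2 fold change of 0.77 ± 0.044 (SE, adjusted p = 7.64e-24). With GNF-7 for 6 h it averaged 93.6 ± 4.67 CPM, lower than vehicle (log2 fold change -0.20 ± 0.043 SE, adjusted p = 8.49e-05), and after 24 h 111 ± 2.61 against 120.5 ± 1.08 CPM, lower (log2 fold change -0.12 ± 0.042 SE, adjusted p = 0.0119). The 24 h call was lost without replicate 3 of GNF-7 24 h (-0.10), with sizes from total counts (-0.092, adjusted p = 0.0607) and with a filter at a mean of 5 CPM (-0.020, adjusted p = 0.679). Its partner COL5A2, at 1.25 ± 0.425 CPM in cycling cells, was higher in senescent cells (log2 fold change 1.21 ± 0.22 SE, adjusted p = 1.58e-06) and higher with GNF-7 at 24 h (log2 fold change 0.54 ± 0.18 SE, adjusted p = 0.00680), 5.35 ± 0.503 against 3.68 ± 0.728 CPM. That second call was lost without replicate 1 of vehicle 24 h (0.44). COL27A1, a fibrillar chain of cartilage, averaged 135 ± 4.86 CPM in cycling cells and 207 ± 9.88 at vehicle 6 h, higher (log2 fold change 0.62 ± 0.081 SE, adjusted p = 1.73e-05), and with GNF-7 it passed the test at neither time (adjusted p = 0.813 and 0.330). The 24 h value was called with the replicate block (-0.10, adjusted p = 0.0317) and with no filter (-0.12, adjusted p = 0.0154).

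COL11A1, the other type XI chain, is described here after its values were seen. It had group means of 0.154 to 0.596 CPM, with 6, 5 and 3 counts in the 3 vehicle 6 h libraries and 18, 18 and 15 at vehicle 24 h. It was under the filter level in every library of cycling cells, vehicle 6 h and GNF-7 for 24 h and was tested only through the groups where it was high, so its calls describe that height and support nothing. The vehicle time value was a log2 fold change of 1.92 ± 0.59 (SE, adjusted p = 0.0146). For COL11A1 the interaction was a log2 difference of -2.28 ± 0.83 (SE, adjusted p = 0.0284), while its GNF-7 values were 1.11 ± 0.62 at 6 h (adjusted p = 0.156) and -1.16 ± 0.54 at 24 h (adjusted p = 0.0609). The 24 h value was called with limma voom (-1.18, adjusted p = 0.0341) and with only the groups compared (-1.16, adjusted p = 0.0354), and DESeq2 gave no adjusted p for the vehicle times. The vehicle call was lost without replicate 3 of vehicle 6 h (1.72), and the interaction without replicate 2 or 3 of vehicle 6 h, replicate 1 of GNF-7 6 h, replicate 2 of vehicle 24 h or replicate 1 of GNF-7 24 h (-2.30, -2.08, -1.92, -2.23 and -2.04) and with no filter (-2.28, adjusted p = 0.0743). Its counts were too low for a firm statement beside those of COL11A2.

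The basement membrane chains split into the pair COL4A1 and COL4A2, lower in senescent cells, and the pair COL4A5 and COL4A6, higher in senescent cells. COL4A1 and COL4A2 form the widespread network, and COL4A5 and COL4A6 lie head to head on the X chromosome and form a more restricted one. COL4A1 (chromosome 13, 110148963 to 110307233, minus strand) stood at 416, 442 and 445 CPM in cycling cells. On vehicle, senescent COL4A1 was at 352, 319.8 and 340.2 CPM for 6 h and 258, 243 and 247 CPM for 24 h. With GNF-7 COL4A1 stood at 322, 305 and 320.4 CPM after 6 h and 168, 153 and 158 CPM after 24 h. Its cycling libraries were all above, and its 24 h GNF-7 libraries all below, every other library, while the 6 h groups overlapped. COL4A1 was lower in senescent cells (log2 fold change -0.36 ± 0.038 SE, adjusted p = 7.52e-13), at vehicle 24 h than 6 h (log2 fold change -0.44 ± 0.039 SE, adjusted p = 1.42e-13) and with GNF-7 at 24 h (log2 fold change -0.64 ± 0.040 SE, adjusted p = 6.36e-22). The 6 h log2 fold change of -0.10 ± 0.038 (SE, adjusted p = 0.0427) was called, but the call was lost under 6 other settings (log2 fold changes of -0.089 to -0.042), and without replicate 1 or 3 of vehicle 6 h (-0.065 and -0.092) or replicate 2 or 3 of GNF-7 6 h (-0.057 and -0.11). The interaction was -0.55 ± 0.055 on the log2 scale (SE, adjusted p = 1.66e-12).

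COL4A2 (chromosome 13, 110305812 to 110513209, plus strand), read from the same stretch on the other strand, stood at 711, 727 and 749 CPM in cycling cells. On vehicle, senescent COL4A2 was at 627, 548 and 578 CPM for 6 h and 515, 471 and 510.3 CPM for 24 h. It was 545, 507 and 543 CPM after 6 h of GNF-7 and 383, 344 and 372 CPM after 24 h. No library overlapped between the groups of any of the 4 direct comparisons. COL4A2 was lower in senescent cells (log2 fold change -0.32 ± 0.043 SE, adjusted p = 2.01e-08), at vehicle 24 h (log2 fold change -0.23 ± 0.043 SE, adjusted p = 1.28e-04), and with GNF-7 at 6 h (log2 fold change -0.14 ± 0.043 SE, adjusted p = 0.00993) and at 24 h (-0.44 ± 0.043 SE, adjusted p = 1.61e-11). The 6 h call was lost without replicate 1 of vehicle 6 h (-0.085) or replicate 2 of GNF-7 6 h (-0.090) and with a filter at a mean of 5 CPM (-0.083, adjusted p = 0.0949). The interaction, a log2 difference of -0.31 ± 0.061 (SE, adjusted p = 9.92e-05), was called.

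COL4A5 (chromosome X, 108439844 to 108697545, plus strand), the chain altered in X-linked Alport syndrome, stood at 35.8, 38.6 and 37.4 CPM in cycling cells. On vehicle, senescent COL4A5 was at 125, 124 and 124 CPM for 6 h and 140.0, 133 and 137 CPM for 24 h. With GNF-7 COL4A5 was 119, 121 and 119.6 CPM after 6 h and 105, 98.2 and 94.6 CPM after 24 h. All senescent libraries were far above the cycling ones, and the 24 h GNF-7 libraries lay between the cycling and the other senescent libraries. COL4A5 was 3.34-fold higher in senescent cells, a log2 fold change of 1.74 ± 0.046 (SE, adjusted p = 4.20e-41), and lower with GNF-7 at 24 h (log2 fold change -0.46 ± 0.042 SE, adjusted p = 6.38e-15). The 6 h value was a log2 fold change of -0.055 ± 0.042 (SE, adjusted p = 0.312). For COL4A5 the interaction was a log2 difference of -0.41 ± 0.059 (SE, adjusted p = 8.08e-08). The vehicle time log2 fold change of 0.14 ± 0.042 (SE, adjusted p = 0.0146) lost its call without replicate 3 of vehicle 6 h (0.13) or replicate 1 or 3 of vehicle 24 h (0.12 and 0.13), with sizes from total counts (0.025, adjusted p = 0.738) and with no filter (0.12, adjusted p = 0.0674). COL4A6 averaged 3.23 ± 0.361 CPM in cycling cells and 12.6 ± 0.349 at vehicle 6 h, higher (log2 fold change 1.96 ± 0.12 SE, adjusted p = 1.65e-22). Its 24 h GNF-7 value, a log2 fold change of -0.20 ± 0.10 (SE, adjusted p = 0.0828), missed the threshold, but was called without replicate 1 of vehicle 24 h (-0.27) or replicate 2 of GNF-7 24 h (-0.26), and so was the interaction, -0.32 with all libraries and -0.39 and -0.38 without each of these.

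All 4 tested type VI chains were higher with GNF-7 at 24 h, against 29.3% of all genes, and 3 of them were also higher in senescent than in cycling cells, against 35.6%. Type VI collagen forms beaded filaments near the cell surface from COL6A1, COL6A2 and one more chain, most often COL6A3. COL6A3 (chromosome 2, 237324003 to 237414375, minus strand) stood at 1379, 1429 and 1408 CPM in cycling cells. On vehicle, senescent COL6A3 was at 1747, 1563 and 1658 CPM for 6 h and 1559, 1439 and 1528 CPM for 24 h. With GNF-7 COL6A3 was 1832, 1666 and 1759 CPM after 6 h and 1989, 1931 and 1942 CPM after 24 h. The 24 h GNF-7 libraries were the 3 highest and the cycling ones the 3 lowest, and the 6 h groups overlapped. COL6A3 was higher in senescent cells (log2 fold change 0.24 ± 0.036 SE, adjusted p = 4.67e-08) and with GNF-7 at 24 h (log2 fold change 0.37 ± 0.036 SE, adjusted p = 9.92e-14), and lower at vehicle 24 h than 6 h (log2 fold change -0.13 ± 0.036 SE, adjusted p = 0.00460). That last call was lost without replicate 1 of vehicle 6 h (-0.092) or replicate 2 of vehicle 24 h (-0.10). The 6 h GNF-7 value, a log2 fold change of 0.082 ± 0.036 (SE, adjusted p = 0.0642), was called under 5 other settings, the replicate block among them (0.082, adjusted p = 0.0258), and without replicate 1 of vehicle 6 h (0.12) or replicate 2 of GNF-7 6 h (0.13). The interaction was 0.29 ± 0.051 on the log2 scale (SE, adjusted p = 4.85e-06).

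COL6A1 (chromosome 21, 45981737 to 46005050, plus strand) stood at 303, 292 and 292 CPM in cycling cells. On vehicle, senescent COL6A1 was at 421, 407 and 416 CPM for 6 h and 417, 393 and 430.3 CPM for 24 h. It was 369, 395 and 387 CPM after 6 h of GNF-7 and 444, 461 and 446 CPM after 24 h, so the treated libraries lay below their vehicle at 6 h and above it at 24 h, without overlap. COL6A1 was higher in senescent cells (log2 fold change 0.49 ± 0.036 SE, adjusted p = 6.22e-19). It was lower with GNF-7 at 6 h (log2 fold change -0.11 ± 0.036 SE, adjusted p = 0.00895) and higher at 24 h (log2 fold change 0.12 ± 0.036 SE, adjusted p = 0.00241). For COL6A1 the interaction was a log2 difference of 0.23 ± 0.050 (SE, adjusted p = 1.55e-04). The 6 h call was lost without replicate 1 of GNF-7 6 h (-0.087) and with a filter at a mean of 5 CPM (-0.059, adjusted p = 0.146), and the 24 h call without replicate 2 of vehicle 24 h (0.083).

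COL6A2 (chromosome 21, 46098097 to 46132849, plus strand), its neighbour on chromosome 21 read in the same direction, stood at 144, 149 and 153 CPM in cycling cells. On vehicle, senescent COL6A2 was at 184, 189 and 176 CPM for 6 h and 211, 208 and 219 CPM for 24 h. With GNF-7 COL6A2 was 168, 180.4 and 184 CPM after 6 h and 309, 345 and 337 CPM after 24 h. The 24 h GNF-7 libraries lay above every other library. COL6A2 was higher in senescent cells (log2 fold change 0.30 ± 0.041 SE, adjusted p = 3.25e-09), at vehicle 24 h than 6 h (log2 fold change 0.22 ± 0.041 SE, adjusted p = 4.61e-05) and with GNF-7 at 24 h (log2 fold change 0.63 ± 0.040 SE, adjusted p = 2.56e-21). The 6 h GNF-7 value was a log2 fold change of -0.044 ± 0.041 (SE, adjusted p = 0.423). For COL6A2 the interaction was a log2 difference of 0.68 ± 0.057 (SE, adjusted p = 3.09e-15). COL6A5, an alternative to COL6A3, was near the detection limit at 0.541 ± 0.0681 CPM at vehicle 24 h and 1.10 ± 0.184 with GNF-7 for 24 h (SD, n = 3), higher (log2 fold change 1.02 ± 0.39 SE, adjusted p = 0.0217). That call was lost without replicate 1 or 2 of vehicle 24 h (0.98 and 0.96) or replicate 2 of GNF-7 24 h (0.91). Its senescence value, a log2 fold change of 0.83 ± 0.42 (SE, adjusted p = 0.0686), was called without cycling replicate 2 (1.28) or replicate 1 of vehicle 6 h (1.01) and with sizes from total counts (0.97, adjusted p = 0.0344), and was 0.49 without cycling replicate 3.

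**Figure D3:**
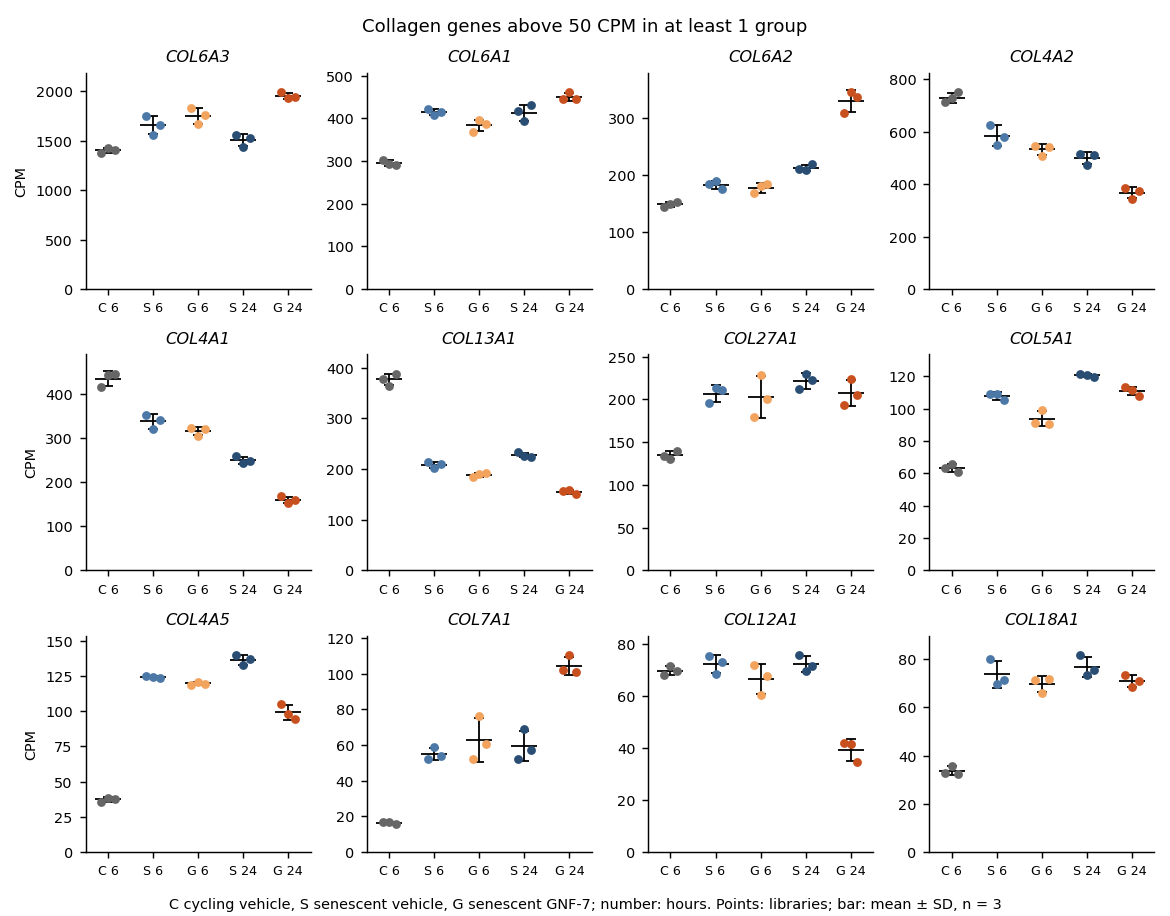
CPM (y axis, from 0) of the 12 collagen genes with a group mean above 50 CPM, 1 panel per gene, in the 5 groups (x axis), with points for libraries and bars for the mean ± SD of 3. COL4A1, COL4A2, COL13A1 and COL12A1 are lowest with GNF-7 for 24 h, and COL6A1, COL6A2, COL6A3 and COL7A1 are highest there.

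COL7A1 (chromosome 3, 48564073 to 48595267, minus strand), the sole chain of the anchoring fibrils that fix the epidermis to the dermis, was higher in senescent cells and higher again with GNF-7 at 24 h. It stood at 16.5, 16.8 and 15.4 CPM in cycling cells. On vehicle, senescent COL7A1 was at 52.0, 58.6 and 53.9 CPM for 6 h and 52.2, 68.7 and 57.0 CPM for 24 h. With GNF-7 COL7A1 was 52.1, 76.3 and 60.4 CPM after 6 h and 102, 110.3 and 101 CPM after 24 h. The cycling libraries were the 3 lowest and the 24 h GNF-7 libraries the 3 highest, and the 3 groups between them overlapped, with replicate 2 the highest of each. COL7A1 was 3.38-fold higher in senescent cells, a log2 fold change of 1.76 ± 0.16 (SE, adjusted p = 1.07e-06), and 1.76-fold higher with GNF-7 at 24 h, with a log2 fold change of 0.82 ± 0.13 (SE, adjusted p = 2.31e-04). The 6 h log2 fold change of 0.20 ± 0.13 (SE, adjusted p = 0.289) was called with the replicate block (0.19, adjusted p = 0.00356). The interaction, a log2 difference of 0.62 ± 0.19 (SE, adjusted p = 0.0277), lost its call without replicate 2 of vehicle 6 h (0.57), replicate 3 of GNF-7 6 h (0.59), replicate 1 or 3 of vehicle 24 h (0.53 and 0.59) or replicate 2 of GNF-7 24 h (0.58), and with only the groups compared in the fit (0.61, adjusted p = 0.0509).

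The chains of type VIII collagen, a short-chain network former of vessel walls and the cornea, moved apart. COL8A1 (chromosome 3, 99638475 to 99799226, plus strand) stood at 3.82, 4.82 and 4.86 CPM in cycling cells. On vehicle, senescent COL8A1 was at 6.16, 5.30 and 5.52 CPM for 6 h and 6.25, 7.12 and 5.49 CPM for 24 h. With GNF-7 COL8A1 was 4.63, 3.77 and 5.09 CPM after 6 h and 2.94, 2.57 and 2.22 CPM after 24 h. The 24 h GNF-7 libraries were the 3 lowest of all 15. COL8A1 was lower with GNF-7 at 24 h (log2 fold change -1.29 ± 0.16 SE, adjusted p = 2.92e-10), the interaction was a log2 difference of -0.96 ± 0.22 (SE, adjusted p = 4.04e-04), and the 6 h value was a log2 fold change of -0.33 ± 0.15 (SE, adjusted p = 0.0772), called without replicate 3 of GNF-7 6 h (-0.43). Its senescence value, a log2 fold change of 0.32 ± 0.15 (SE, adjusted p = 0.0528), was called under 4 other settings, up to 0.46 with sizes from total counts.

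COL8A2 (chromosome 1, 36095236 to 36125220, minus strand) stood at 1.33, 1.31 and 1.14 CPM in cycling cells. On vehicle, senescent COL8A2 was at 2.72, 2.62 and 2.81 CPM for 6 h and 3.16, 4.02 and 3.33 CPM for 24 h. It was 4.41, 4.01 and 4.14 CPM after 6 h of GNF-7 and 7.62, 6.46 and 6.71 CPM after 24 h, above the vehicle libraries of the same time without overlap. COL8A2 was higher in senescent cells (log2 fold change 1.11 ± 0.20 SE, adjusted p = 1.53e-06) and with GNF-7 at 6 h (log2 fold change 0.62 ± 0.17 SE, adjusted p = 0.00169) and at 24 h (0.98 ± 0.16 SE, adjusted p = 1.60e-07). The difference between the times, a log2 difference of 0.36 ± 0.23 (SE, adjusted p = 0.252), was not called.

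Of 10 fibril-associated chains, which coat fibrils and link them to their surroundings, 5 were tested. COL12A1 (chromosome 6, 75084326 to 75206051, minus strand), which binds type I fibrils in tendon and muscle, stood at 68.1, 71.8 and 69.8 CPM in cycling cells. On vehicle, senescent COL12A1 was at 75.7, 68.7 and 73.3 CPM for 6 h and 75.8, 69.7 and 71.6 CPM for 24 h. With GNF-7 COL12A1 was 71.9, 60.6 and 67.9 CPM after 6 h and 42.0, 41.7 and 34.5 CPM after 24 h. The other groups overlapped, and the 24 h GNF-7 libraries lay below every other. COL12A1 was 0.544 times its vehicle level with GNF-7 at 24 h, with a log2 fold change of -0.88 ± 0.060 (SE, adjusted p = 4.86e-17). For COL12A1 the interaction was a log2 difference of -0.76 ± 0.083 (SE, adjusted p = 4.29e-10). Its senescence value was a log2 fold change of 0.053 ± 0.058 (SE, adjusted p = 0.416), called under 3 other settings, up to 0.20 with a filter at a mean of 5 CPM. The 6 h GNF-7 value, a log2 fold change of -0.12 ± 0.058 (SE, adjusted p = 0.0995), was called without replicate 2 of vehicle 6 h (-0.16) or replicate 1 of GNF-7 6 h (-0.18). It was also called with no filter.

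COL20A1 (chromosome 20, 63293186 to 63334851, plus strand), a little-studied fibril-associated chain, had 0, 0 and 3 counts in the 3 cycling libraries, 35, 26 and 20 at vehicle 6 h and 21, 16 and 23 at vehicle 24 h. With GNF-7 it had 37, 47 and 45 counts after 6 h and 232, 285 and 275 after 24 h, which is 7.75, 9.26 and 9.13 CPM. Every 24 h GNF-7 library was several times above every other library. Per scaled depth, the summed counts at vehicle 6 h were 25.2 (95% exact interval 8.31 to 125) times those of cycling cells. With GNF-7 for 24 h they were 246 (95% exact interval 83.8 to 1194) times those of cycling cells. The intervals cover counting error only. In every cycling library the gene was under the filter level, so it was tested only because other groups were higher. Both ratios are therefore descriptions. COL20A1 was 12.3-fold higher with GNF-7 than with vehicle at 24 h, with a log2 fold change of 3.62 ± 0.24 (SE, adjusted p = 4.28e-21). For COL20A1 the interaction was a log2 difference of 2.96 ± 0.37 (SE, adjusted p = 1.09e-09). The 6 h log2 fold change of 0.66 ± 0.26 (SE, adjusted p = 0.0406) lost its call without replicate 2 or 3 of vehicle 6 h (0.60 and 0.51), replicate 2 or 3 of GNF-7 6 h (0.57 and 0.65) or replicate 2 or 3 of GNF-7 24 h (0.66 and 0.66), and with limma voom (0.67, adjusted p = 0.0855), no filter (0.64, adjusted p = 0.0806) or only the groups compared (0.67, adjusted p = 0.0764).

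COL16A1, a minor fibril-associated chain, and COL22A1, which is known from tissue junctions, were both higher in senescent cells. COL16A1 averaged 6.54 ± 0.496 CPM in cycling cells and 13.9 ± 1.38 at vehicle 6 h (SD, n = 3), higher (log2 fold change 1.10 ± 0.11 SE, adjusted p = 2.23e-13). With GNF-7 at 24 h it was 13.0 ± 1.32 against 15.6 ± 1.45 CPM, lower (log2 fold change -0.26 ± 0.10 SE, adjusted p = 0.0241) with overlapping libraries. That call was lost without replicate 2 or 3 of vehicle 24 h (-0.24 and -0.21) or replicate 1 or 3 of GNF-7 24 h (-0.20 and -0.25) and with a filter at a mean of 5 CPM (-0.16, adjusted p = 0.176). Its interaction, a log2 difference of -0.38 ± 0.14 (SE, adjusted p = 0.0356), lost its call without any one of replicates 1 and 3 of vehicle 6 h, replicate 2 of GNF-7 6 h, replicates 2 and 3 of vehicle 24 h and replicates 1 and 3 of GNF-7 24 h (-0.35, -0.33, -0.27, -0.35, -0.33, -0.32 and -0.36) and with that filter (-0.33, adjusted p = 0.0658). COL22A1 averaged 1.58 ± 0.236 CPM in cycling cells, 4.40 ± 0.407 at vehicle 6 h and 6.99 ± 0.930 at vehicle 24 h, higher in senescent cells (log2 fold change 1.49 ± 0.18 SE, adjusted p = 4.79e-11) and at 24 h than 6 h of vehicle (log2 fold change 0.67 ± 0.14 SE, adjusted p = 3.84e-04). With GNF-7 it passed the test at neither time (adjusted p = 0.380 and 0.349). COL21A1, with group means of 0.511 to 1.03 CPM, had adjusted p-values of 0.0700 to 0.677 in the 5 contrasts of edgeR's test. Its values were called with GNF-7 at 6 h without replicate 1 or 2 of vehicle 6 h (-1.19 and -1.28) and with only the groups compared (-0.98, adjusted p = 0.0475), and in senescence without replicate 2 of vehicle 6 h (1.06). With all libraries these values were -0.996 and 0.79, and without replicate 3 of vehicle 6 h they were -0.37 and 0.16. The senescence value was 0.37 without cycling replicate 1.

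The tested transmembrane collagens, COL13A1 and COL17A1, were both lower with GNF-7 at 24 h and differed in senescence. COL13A1 (chromosome 10, 69801867 to 69964275, plus strand), a membrane-anchored chain of cell adhesion sites and the neuromuscular junction, stood at 378, 365 and 388 CPM in cycling cells. On vehicle, senescent COL13A1 was at 213, 202 and 211 CPM for 6 h and 233, 226 and 225 CPM for 24 h. With GNF-7 COL13A1 was 185, 189 and 193 CPM after 6 h and 156, 159 and 151 CPM after 24 h. The cycling libraries were the 3 highest and the 24 h GNF-7 libraries the 3 lowest. COL13A1 was lower in senescent cells (log2 fold change -0.85 ± 0.036 SE, adjusted p = 3.01e-30), and lower with GNF-7 at 6 h (log2 fold change -0.14 ± 0.037 SE, adjusted p = 0.00124) and at 24 h (-0.56 ± 0.037 SE, adjusted p = 1.64e-20). The COL13A1 interaction was a log2 difference of -0.41 ± 0.052 (SE, adjusted p = 2.04e-09). Its vehicle time log2 fold change of 0.13 ± 0.037 (SE, adjusted p = 0.00822) lost its call without replicate 2 of vehicle 6 h (0.11) or replicate 1 of vehicle 24 h (0.11) and with sizes from total counts (0.018, adjusted p = 0.795).

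COL17A1, the hemidesmosome collagen of basal epithelium, averaged 23.4 ± 1.93 CPM in cycling cells, 27.0 ± 1.23 at vehicle 6 h, 28.4 ± 1.73 at vehicle 24 h and 20.4 ± 1.06 with GNF-7 for 24 h (SD, n = 3). It was lower with GNF-7 at 24 h (log2 fold change -0.48 ± 0.071 SE, adjusted p = 3.57e-08). The COL17A1 interaction was a log2 difference of -0.56 ± 0.10 (SE, adjusted p = 5.44e-06). The senescence log2 fold change of 0.21 ± 0.071 (SE, adjusted p = 0.00815) lost its call without cycling replicate 1 (0.14) or replicate 2 of vehicle 6 h (0.17).

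The multiplexins COL15A1 and COL18A1, basement membrane proteoglycans whose ends can be released as angiogenesis inhibitors, were called higher in senescent cells. With GNF-7 COL15A1 was higher at both times. COL18A1 was called lower at 24 h only, a call lost under several alternatives. COL15A1 (chromosome 9, 98943179 to 99070792, plus strand) stood at 0.644, 0.413 and 0.653 CPM in cycling cells. On vehicle, senescent COL15A1 was at 0.762, 1.01 and 1.18 CPM for 6 h and 0.574, 0.846 and 1.01 CPM for 24 h. With GNF-7 COL15A1 was 2.11, 1.99 and 2.70 CPM after 6 h and 1.94, 2.79 and 2.76 CPM after 24 h. All 6 GNF-7 libraries were above all 9 others. COL15A1 was higher with GNF-7 at 6 h (log2 fold change 1.20 ± 0.27 SE, adjusted p = 2.42e-04) and at 24 h (1.64 ± 0.28 SE, adjusted p = 1.01e-06), and the difference between the times, a log2 difference of 0.43 ± 0.40 (SE, adjusted p = 0.460), was not called. Its senescence log2 fold change of 0.79 ± 0.33 (SE, adjusted p = 0.0301) lost its call without cycling replicate 2 (0.59) or replicate 2 or 3 of vehicle 6 h (0.76 and 0.64), with limma voom (0.78, adjusted p = 0.0718) and with no filter (0.80, adjusted p = 0.0517).

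COL18A1, the source of endostatin, averaged 33.8 ± 1.82 CPM in cycling cells and 73.7 ± 5.48 at vehicle 6 h (SD, n = 3), higher (log2 fold change 1.13 ± 0.055 SE, adjusted p = 7.30e-27). The 24 h GNF-7 value was a log2 fold change of -0.12 ± 0.051 (SE, adjusted p = 0.0484), a call lost without replicate 2 of GNF-7 6 h (-0.11), replicate 1 of vehicle 24 h (-0.073) or replicate 2 or 3 of GNF-7 24 h (-0.093 and -0.12), with DESeq2 (-0.12, adjusted p = 0.0622), with sizes from total counts (-0.088, adjusted p = 0.148) and with a filter at a mean of 5 CPM (-0.015, adjusted p = 0.800). COL18A1 shares 1401 exon bases, 16.4% of its exon length, with SLC19A1 on the other strand, and whether reads were counted by strand is not given in the sources used here, so its level is uncertain.

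**Figure D4:**
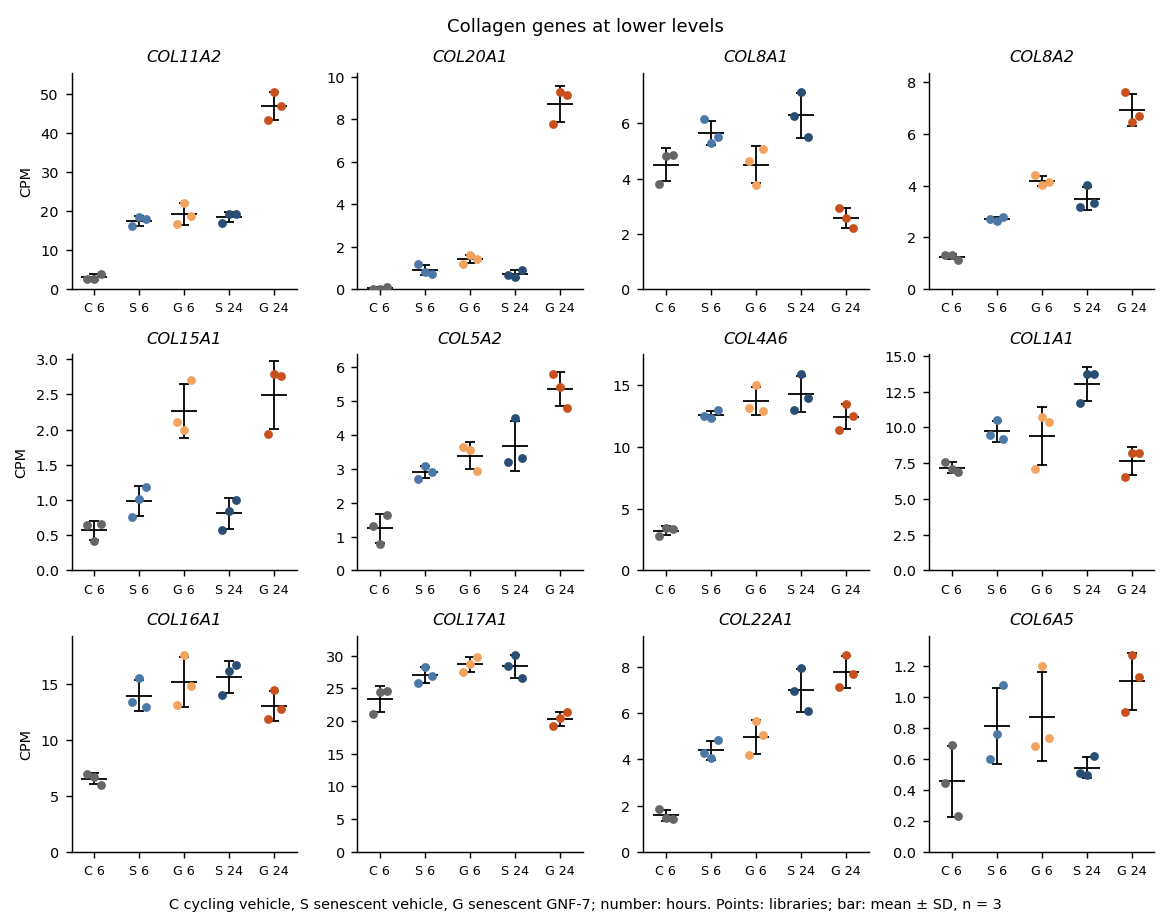
CPM (y axis, from 0, with its own scale in each panel) of the 12 collagen genes whose group means are all below 50 CPM, in the 5 groups (x axis), with points for libraries and bars for the mean ± SD of 3. COL11A2 and COL20A1 are highest, and COL8A1 and COL17A1 lowest, with GNF-7 for 24 h.

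The ratio between chains that assemble together was compared across groups. Chain pairs, 6 in number, were compared per length in 4 comparisons each, 24 in all, by a two-sided exact permutation test of the log2 ratio. With 3 libraries against 3 the smallest p this test can give is 0.1, so none could pass 0.05. The smallest p found, adjusted over the 24, was 0.141. COL4A1 to COL4A2 was 0.780 ± 0.0157 in cycling cells (SD, n = 3), 0.757 ± 0.0183 at vehicle 6 h, 0.778 ± 0.00801 with GNF-7 for 6 h, 0.655 ± 0.0212 at vehicle 24 h and 0.570 ± 0.0123 with GNF-7 for 24 h. The last 2 groups did not overlap with each other or with the earlier ones. COL6A1 to COL6A2 was 1.96 ± 0.0479 at vehicle 24 h and 1.38 ± 0.0642 with GNF-7 for 24 h, without overlap, and at 6 h 2.29 ± 0.112 and 2.18 ± 0.0561, with overlap. COL8A1 to COL8A2 was 1.79 ± 0.344 in cycling cells, 1.04 ± 0.0802 at vehicle 6 h, 0.533 ± 0.0728 with GNF-7 for 6 h, 0.894 ± 0.0825 at vehicle 24 h and 0.184 ± 0.0174 with GNF-7 for 24 h.

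COL6A3 to COL6A1 stood at 1.29 ± 0.0491 in cycling cells. At 6 h it was 1.09 ± 0.0422 on vehicle and 1.25 ± 0.102 with GNF-7, without overlap. At 24 h it was 0.993 ± 0.0255 on vehicle and 1.18 ± 0.0392 with GNF-7, also without overlap. COL5A1 to COL5A2 was far from even in every group, from 13.9 ± 1.00 with GNF-7 for 24 h to 37.3 ± 16.0 in cycling cells. COL4A5 to COL4A6 ran from 6.28 ± 0.815 to 9.08 ± 0.737 in the same groups. Scaling between libraries does not enter these ratios, since both genes of a pair share the library.

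**Figure D5:**
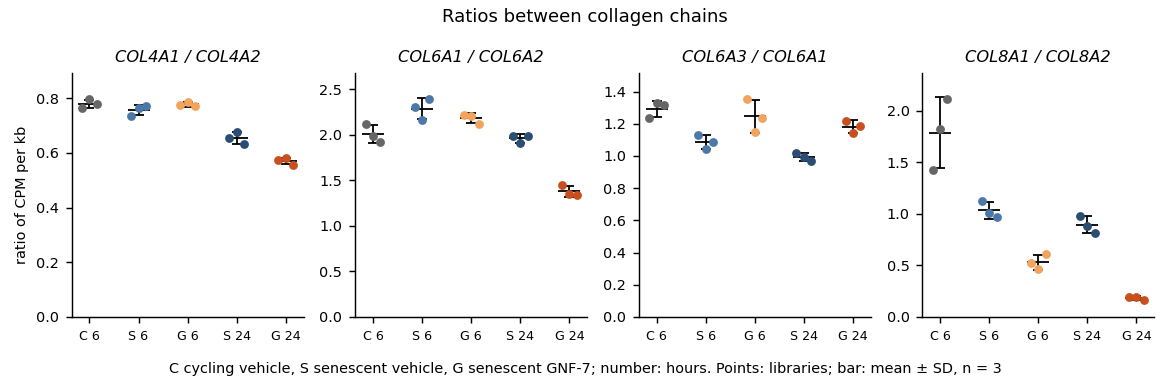
Ratio of CPM per kb (y axis, from 0) between the chains of 4 collagen pairs in the 5 groups (x axis), with points for libraries and bars for the mean ± SD of 3. COL4A1 to COL4A2, COL6A1 to COL6A2 and COL8A1 to COL8A2 are lowest with GNF-7 for 24 h, at 0.570, 1.38 and 0.184.

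The enzymes and chaperones that make collagen were mostly lower with GNF-7. Of 37 such genes 34 were tested, and ADAMTS2, TLL1 and LOXL4 were too low. With GNF-7, 3 were higher and 22 lower at 6 h, against 17.9% and 21.4% of all genes. At 24 h 5 were higher and 23 lower, against 29.3% and 29.7%, and the medians were -0.22 and -0.50, against 0.0073 and 0.038 for all genes. Against cycling cells, senescent cells had 21 of them higher and 5 lower, against 35.6% and 34.4% of all genes. The 15 tested genes listed for proline and lysine modification, enzymes and partner proteins, gave 1 higher and 12 lower at 6 h. At 24 h they gave 1 higher and 11 lower, beside the same shares of all genes. SERPINH1, the collagen chaperone HSP47, averaged 347 ± 19.6 CPM at vehicle 6 h and 244 ± 5.08 with GNF-7 for 6 h (SD, n = 3), lower (log2 fold change -0.51 ± 0.038 SE, adjusted p = 7.70e-18). SEC24D, a coat protein of the vesicles that carry procollagen, was lower at 6 h (log2 fold change -0.66 ± 0.050 SE, adjusted p = 9.17e-18). MIA2, which helps load procollagen into those vesicles, went the other way, 26.4 ± 0.896 against 58.9 ± 0.776 CPM at 6 h and 26.5 ± 1.23 against 62.7 ± 2.64 CPM at 24 h, higher (log2 fold changes 1.15 ± 0.059 SE, adjusted p = 1.74e-25, and 1.24 ± 0.059 SE, adjusted p = 1.31e-27). MIA3 (TANGO1), its partner, was higher at 6 h (log2 fold change 0.19 ± 0.043 SE, adjusted p = 1.86e-04).

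All 4 tested cross-linking oxidases were lower with GNF-7 at 24 h, against 29.7% of all genes, and the interaction was called as more negative in all 4, against 18.0%. LOXL1 averaged 105 ± 7.27 CPM at vehicle 24 h and 40.5 ± 2.71 with GNF-7 (SD, n = 3), lower (log2 fold change -1.37 ± 0.054 SE, adjusted p = 4.72e-29). LOXL3 went from 145 ± 8.83 to 58.6 ± 2.20 CPM, lower (log2 fold change -1.31 ± 0.050 SE, adjusted p = 2.85e-29). LOXL2 was higher at vehicle 24 h than 6 h (log2 fold change 0.47 ± 0.039 SE, adjusted p = 5.66e-13) and had an interaction (log2 difference) of -0.80 ± 0.056 (SE, adjusted p = 2.37e-16). TLL2, a tolloid-like proteinase, was higher with GNF-7 at 24 h, 10.5 ± 0.786 against 3.35 ± 0.439 CPM (log2 fold change 1.64 ± 0.15 SE, adjusted p = 1.34e-14). In senescence the trimming proteinases ADAMTS14 and BMP1 were higher (log2 fold changes 3.93 ± 0.16 SE, adjusted p = 1.75e-31, and 1.05 ± 0.044 SE, adjusted p = 8.12e-31), and P3H3, a prolyl hydroxylase family member, and TMEM38B, an endoplasmic reticulum ion channel, lower (log2 fold changes -0.61 ± 0.046 SE, adjusted p = 1.91e-18, and -0.73 ± 0.087 SE, adjusted p = 3.63e-11). TMEM38B had an interaction (log2 difference) of 0.53 ± 0.13 (SE, adjusted p = 9.51e-04). Between the vehicle times FKBP10, a prolyl isomerase, was higher (log2 fold change 0.38 ± 0.036 SE, adjusted p = 8.10e-13). MIA3 was lower there (log2 fold change -0.17 ± 0.043 SE, adjusted p = 0.00316), lost without replicate 3 of vehicle 6 h (-0.13), and TMEM38B (log2 fold change -0.30 ± 0.093 SE, adjusted p = 0.0147), lost without replicate 1 or 2 of vehicle 6 h (-0.28 and -0.28) or replicate 3 of vehicle 24 h (-0.27).

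Of 10 collagen receptors 8 were tested, and ITGA11 and GP6 were too low. With GNF-7, 1 was higher and 3 lower at 6 h, a share of 50% called that is near the 39.3% of all genes. At 24 h 2 were higher and 5 lower, against 29.3% and 29.7% of all genes. The 2 higher include LAIR1, whose level was close to that of the filter. The receptor tyrosine kinases DDR1 and DDR2 moved apart. DDR2, which prefers fibrillar collagen, averaged 108 ± 2.03 CPM at vehicle 6 h and 244 ± 10.8 with GNF-7 for 6 h (SD, n = 3), higher (log2 fold change 1.17 ± 0.039 SE, adjusted p = 4.83e-35). At 24 h it averaged 112 ± 1.80 and 279.5 ± 5.18 CPM, higher (log2 fold change 1.31 ± 0.039 SE, adjusted p = 3.83e-38). DDR1, which also binds type IV collagen, averaged 140.4 ± 1.10 CPM in cycling cells and 322 ± 17.1 at vehicle 6 h, higher (log2 fold change 1.20 ± 0.038 SE, adjusted p = 5.65e-37), and was lower with GNF-7 at 6 h (log2 fold change -0.31 ± 0.037 SE, adjusted p = 2.48e-10) and at 24 h (-0.66 ± 0.037 SE, adjusted p = 3.72e-24). ITGA10, the collagen-binding integrin chain of cartilage, fell with GNF-7 from 88.1 ± 4.40 to 34.0 ± 1.96 CPM at 24 h, with a log2 fold change of -1.37 ± 0.050 (SE, adjusted p = 2.58e-33), after a log2 fold change of -0.33 ± 0.048 (SE, adjusted p = 3.35e-08) at 6 h. The differences between the times were a log2 difference of -1.04 ± 0.069 (SE, adjusted p = 1.43e-19) for ITGA10, a log2 difference of -0.36 ± 0.052 (SE, adjusted p = 8.45e-08) for DDR1 and a log2 difference of 0.14 ± 0.054 (SE, adjusted p = 0.0364) for DDR2, the last a call lost under 5 other settings and without any one of replicates 1 and 3 of vehicle 6 h, replicates 2 and 3 of GNF-7 6 h, replicates 1 and 3 of vehicle 24 h and replicates 1 and 2 of GNF-7 24 h, with values of 0.10 to 0.15.

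Senescent cells also had MRC2, the endocytic collagen receptor, higher (log2 fold change 0.56 ± 0.037 SE, adjusted p = 4.43e-21) and ITGA10 lower (log2 fold change -0.28 ± 0.047 SE, adjusted p = 2.73e-07). DDR2 was called lower (log2 fold change -0.13 ± 0.040 SE, adjusted p = 0.00328), a value that turned to 0.0038 with sizes from total counts and 0.022 under the 5 CPM filter, neither of them called. LAIR1, an inhibitory leukocyte receptor, was called higher with GNF-7 at 24 h (log2 fold change 1.49 ± 0.65 SE, adjusted p = 0.0444) at a mean of 0.529 ± 0.0602 CPM, and lost its call with no filter (1.46, adjusted p = 0.0666), with DESeq2 (1.51, adjusted p = 0.0525) and without 7 single libraries (1.49, 1.48, 1.38, 1.04, 1.52, 1.54 and 1.39 without replicates 2 and 3 of GNF-7 6 h, replicates 1 and 3 of vehicle 24 h, and replicates 1, 2 and 3 of GNF-7 24 h). Without replicate 2 of vehicle 24 h the LAIR1 value rose to 2.30. Since its level was close to that of the filter, about 0.335 CPM, this value is a description. Between the vehicle times ITGA2, the collagen-binding integrin chain of platelets and epithelia, was lower (log2 fold change -0.25 ± 0.039 SE, adjusted p = 3.11e-06), and ITGA10 higher (log2 fold change 0.20 ± 0.047 SE, adjusted p = 9.28e-04).

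The TGF-beta pathway, the best-known inducer of collagen genes, was tested through 19 genes, all of which passed the filter. With GNF-7, 2 were higher and 12 lower at 6 h, against 17.9% and 21.4% of all genes, and 4 higher and 13 lower at 24 h, against 29.3% and 29.7%. The medians were -0.18 and -0.67, against 0.0073 and 0.038 for all genes. In senescence, 12 were higher and 5 lower, against 35.6% and 34.4% of all genes, with LTBP3, a latent TGF-beta binding protein, higher (log2 fold change 1.41 ± 0.040 SE, adjusted p = 2.12e-39), and SMAD4, the shared signal carrier, lower (log2 fold change -0.66 ± 0.052 SE, adjusted p = 1.04e-17). CCN2 (CTGF), a matricellular target gene, averaged 352 ± 15.9 CPM in cycling cells, 243 ± 12.7 at vehicle 6 h, 89.9 ± 2.73 with GNF-7 for 6 h, 151 ± 14.6 at vehicle 24 h and 31.9 ± 2.42 with GNF-7 for 24 h (SD, n = 3). It was lower in senescent cells (log2 fold change -0.54 ± 0.055 SE, adjusted p = 7.21e-09), at vehicle 24 h (log2 fold change -0.68 ± 0.057 SE, adjusted p = 4.87e-09) and with GNF-7 at 6 h (log2 fold change -1.43 ± 0.059 SE, adjusted p = 1.03e-15).

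TGFBI, a secreted collagen-binding target, was 54.6 ± 3.56 CPM at vehicle 24 h and 16.1 ± 0.512 with GNF-7 (SD, n = 3), lower (log2 fold change -1.76 ± 0.063 SE, adjusted p = 9.17e-34). The TGFBI interaction was a log2 difference of -1.59 ± 0.085 (SE, adjusted p = 6.37e-24). Of the signal carriers, SMAD3 was lower at 6 h (log2 fold change -0.66 ± 0.036 SE, adjusted p = 6.48e-24) and SMAD2 higher (log2 fold change 0.72 ± 0.041 SE, adjusted p = 3.63e-23). The inhibitory SMAD7 was lower at vehicle 24 h than 6 h (log2 fold change -0.60 ± 0.089 SE, adjusted p = 4.79e-07) and higher with GNF-7 at 24 h (log2 fold change 0.58 ± 0.089 SE, adjusted p = 8.35e-08). The SMAD7 interaction was a log2 difference of 0.76 ± 0.12 (SE, adjusted p = 1.05e-06). LTBP1 was higher with GNF-7 at 6 h (log2 fold change 0.17 ± 0.044 SE, adjusted p = 0.00149) and at 24 h (0.37 ± 0.044 SE, adjusted p = 6.56e-11). The LTBP1 interaction was a log2 difference of 0.20 ± 0.062 (SE, adjusted p = 0.00785) that was lost without replicate 2 of vehicle 24 h (0.16). TGFBR2, a receptor, was higher at vehicle 24 h (log2 fold change 0.26 ± 0.040 SE, adjusted p = 1.39e-06).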

How the data were processed

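Read counts per gene and library were deposited by the authors as raw whole numbers. Per the submitters' processing notes the tools were bcl2fastq 2.20.0.422, STAR 2.7.9a and featureCounts 1.5.1 on GRCh38, and the strand setting and annotation release are not given in the sources used here. Per the labels a stranded mRNA kit was used. Of 60673 rows 3 were left out (1 entry broken over lines). Symbols, exon lengths and coordinates came from GENCODE release 29 and promoter sequences from RefSeq (GRCh38.p14). In R 4.3.3 all 15 libraries (25991007 to 32323393 counts) were fitted with edgeR 4.0.16 (filterByExpr, TMM, robust quasi-likelihood test, Benjamini-Hochberg over 18563 genes), checked on simulated counts, with a common biological coefficient of variation of 4.64%. CPM were TMM-scaled, and levels between genes were divided by exon length. Alternatives were other size factors, mitochondrial genes left out, other filters, DESeq2 1.42.0, limma voom 3.58.1, only the groups compared, a replicate block and leaving out each library. Collagen genes were described one by one where a group mean reached 10 CPM, or where the gene was called at 2-fold or more and reached 1 CPM. In the pathway lists the rule took the 2 genes with the smallest p in each direction and contrast, of which 1 gene is not reported here. The members and lists were chosen with earlier results of these data known.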

Additional observations from a re-analysis of the deposited data

Results flagged for a closer look

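By the interaction test of edgeR, 16 collagen genes had unequal GNF-7 effects at 6 h and at 24 h, against 30.8% of all genes. The log2 difference (24 h effect minus 6 h effect) was positive for COL6A1 (0.23), COL6A2 (0.68), COL6A3 (0.29), COL7A1 (0.62), COL11A2 (1.21) and COL20A1 (2.96). For COL6A1 the effect also had opposite called directions at the 2 times, lower at 6 h and higher at 24 h. Each of these 2 calls was lost without a single library, as described with the gene. The log2 difference was negative for COL1A1 (-0.71), COL4A1 (-0.55), COL4A2 (-0.31), COL4A5 (-0.41), COL8A1 (-0.96), COL11A1 (-2.28), COL12A1 (-0.76), COL13A1 (-0.41), COL16A1 (-0.38) and COL17A1 (-0.56). The values for COL7A1, COL11A1 and COL16A1 lost their call without single libraries, as described with each gene. COL11A1 was under the filter level in every vehicle 6 h and every 24 h GNF-7 library and was tested only through the groups where it was high, so its value is a description. Mitochondrial genes took a larger share of the counts with GNF-7 for 24 h than in any other group, and its part in these differences was not tested.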

How the results depend on the processing

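Of 130 log2 fold changes, for the 26 tested collagen genes in the 5 contrasts, 76 were called, none of these called values changed sign under any of 24 alternatives, and 56 kept their call under all that gave a value. Of 3075 comparisons with an alternative, 83 lost a call, 35 gained one and 32 changed sign, all of the last among values that were not called. Alternatives for the pathway genes, COL11A1 and COL21A1 were chosen after seeing the data. The deviations of libraries that share a replicate number were not correlated over all tested genes (from -0.037 to 0.058 over 30 pairs). In every group, however, replicates 1 and 2 differed most from each other. In every senescent group the mitochondrial share was lowest in replicate 1 and highest in replicate 2, with 15.1% and 18.7% at vehicle 24 h. The labels do not say whether a number marks a shared culture or day, so whether the numbers pair libraries was not settled. With the replicate block the collagen genes called were 21 in senescence, 10 with GNF-7 at 6 h, 22 at 24 h, 16 for the interaction and 10 for the vehicle times, with COL6A3 and COL7A1 gained at 6 h and COL27A1 at 24 h.

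The filter at a mean of 5 CPM left 18 collagen genes to test and called 3 of them with GNF-7 at 6 h and 12 at 24 h, with medians of -0.058 at 24 h and -0.14 for the interaction. The 24 h median was 0.10 with no filter and -0.090 with sizes from total counts, which took the all-gene median from 0.062 to 0.19 in senescence and from 0.0088 to -0.10 between the vehicle times. The vehicle-time collagen median was then -0.0051, with 4 genes higher and 4 lower in place of 7 and 3. This scaling turned COL11A2, COL17A1, COL18A1 and COL27A1 between the vehicle times (log2 fold changes of -0.031, -0.040, -0.048 and -0.010 with total counts). With the 5 CPM filter the turned values were COL27A1 at 24 h (0.0056), COL1A1, COL27A1 and COL6A2 at 6 h (0.0021, 0.024 and 0.0087), COL18A1 and COL22A1 for the interaction (0.013 and 0.025) and COL12A1 and COL6A1 between the vehicle times (0.0033 and 0.0026). DDR2 in senescence turned to 0.0038 and 0.022 under these settings, and total counts left 1 receptor gene called between the vehicle times in place of 2. The cause was not tested.

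Leaving out single libraries moved the collagen median in senescence between 0.60, without replicate 3 of vehicle 6 h, and 0.84. Log2 fold changes that changed sign without single libraries had these ranges, with GNF-7 at 6 h COL1A1 (-0.14 to 0.11), COL27A1 (-0.11 to 0.049) and COL6A5 (-0.18 to 0.35), with GNF-7 at 24 h COL21A1 (-0.46 to 0.093), for the interaction COL18A1 (-0.10 to 0.0092), COL22A1 (-0.13 to 0.074) and COL27A1 (-0.15 to 0.022), between the vehicle times COL12A1 (-0.040 to 0.031), COL6A1 (-0.032 to 0.033) and COL7A1 (-0.0063 to 0.20). The filter asked for about 0.335 CPM (10 counts) in at least 3 libraries, and COL1A2, COL3A1 and 16 other collagen genes did not reach it and were not tested.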
